A study of Mus musculus with 4 samples.

Results

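The genes described here are the ubiquitin ligases named Rnf (RING finger) or Trim (tripartite motif) followed by a number. They were taken by name from the gene column of 4 lists of N6-methyladenosine (m6A) peaks from mouse embryonic stem cells. Of the 9949 genes with a peak in any list, 80 carried such a name, 48 of them Rnf and 32 Trim. Together they held 392 peaks, which joined into 142 of the 15487 regions of all genes where exon blocks of the lists overlapped. A RefSeq table of GRCm38.p6 names 151 protein-coding mouse genes in this way; all 80 genes matched it, and the other 71 (35 Rnf and 36 Trim) had no peak in the lists. The name is a family name and not a test of activity: it takes in Rnf17, a Tudor-domain protein of germ cells, and leaves out RING ligases named otherwise, such as Mdm2.

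The study compared wild-type embryonic stem cells with Mettl5-/- cells, which lack the enzyme known to methylate 1 adenosine of 18S ribosomal RNA. All 4 libraries came from C57BL/6N cells; 2 were wild type and 2 were Mettl5-/-. An anti-m6A antibody was used to pull down fragments of total RNA, which were then sequenced (MeRIP-seq). The labels do not say how the allele was made, whether libraries of 1 genotype stem from separate clones or cultures, or whether the differentiation described in their treatment text was applied to these cells, whose source is given as embryonic stem cells. The spread between libraries of a genotype may therefore be technical. The titles of the wild-type libraries are worded differently (Ctr for wild type 1, WT for wild type 2) with the same genotype.

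Ubiquitin is passed from an E1 activating enzyme to an E2 conjugating enzyme and then to a protein, and the E3 ligase chooses that protein. In RING ligases a zinc-binding RING domain holds the E2 and lets it pass ubiquitin on directly. TRIM proteins carry a RING, B-boxes and a coiled coil, followed by a variable end such as PRY-SPRY or NHL repeats, and are known for roles in antiviral defence, chromatin and RNA control. In messenger RNA, m6A is placed mainly by the Mettl3-Mettl14 complex, often in long exons and near the stop codon.

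Each peak came with a p-value and a fold enrichment over a background that the lists do not name. The fold is the authors' value for that peak and is used here to describe peaks, not to compare levels between libraries. Strength is given as a percentile: the rank of a p-value within its own list, with 100 the strongest, the best peak standing for its gene. Read depth is unknown, so a missing peak means only that none was listed. The lists held 10821 to 12699 peaks in 7281 to 8338 genes; Mettl5 itself had none, so they cannot check the genotype. Of 11 pluripotency genes 8 had a peak, among them Pou5f1, Sox2 and Klf4 in every library, while Nanog, Zfp42 and Dppa5a had none. All 4 neural genes had a peak, Sox1 and Nes in every library and Pax6 and Tubb3 in part of them. A peak was also listed for 3 of 5 mesoderm and endoderm genes, and of 4 feeder fibroblast genes only for Vim. Peaks are not RNA levels, and what these markers have to do with the results was not tested.

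The Rnf and Trim genes were listed in both genotypes to a similar extent. Wild type 1 and 2 had peaks in 67 and 57 of them, and knockout 1 and 2 in 68 and 58. The mean was 62 ± 7.07 genes for wild type against 63 ± 7.07 for the knockout (SD, n = 2 each; exact permutation test, two-sided, p = 0.667). Their peaks numbered 106 and 91 in wild type and 102 and 93 in the knockout, with means of 98.5 ± 10.6 and 97.5 ± 6.36 (SD, n = 2 each; exact permutation test, two-sided, p = 1). Wild type 1 and knockout 1 were the higher of their genotypes, and the genotypes overlapped. The wild-type labels give no replicate number, so a shared number does not pair libraries across genotypes. With 2 libraries against 2, the smallest p that this test can give is 0.333.

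**Figure D1:**
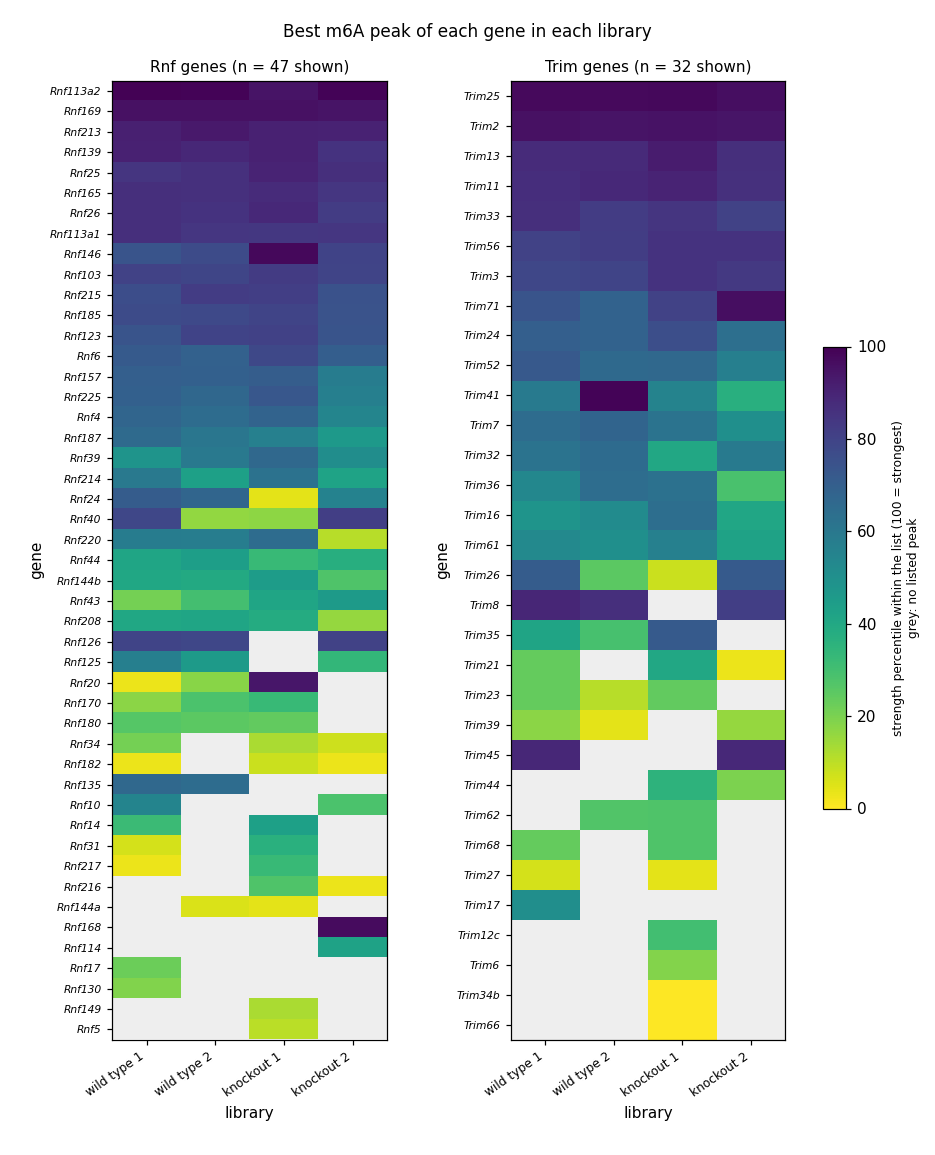
Strength of the best peak of 47 Rnf and 32 Trim genes (rows) in the 4 libraries (columns), as the percentile of its p-value within its list; grey marks a gene with no listed peak. Most rows are filled in all 4 columns and keep a similar shade, and 44 genes have no grey cell.

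Of the 80 genes, 44 (55%) had a peak in all 4 libraries, against 57.1% of all genes with a peak. The families were close, with 27 of 48 Rnf and 17 of 32 Trim genes. Another 13 were listed in 3 libraries, 12 in 2 and 11 in 1. Of those in a single library, knockout 1, the longest list, held 6: Trim12c, Trim66, Trim6, Trim34b, Rnf149 and Rnf5. Wild type 1 alone held Trim17, Rnf17 and Rnf130, knockout 2 alone held Rnf114 and Rnf168, and wild type 2 held none. For all genes, 7.92% were in knockout 1 alone, and 7.5% of the Rnf and Trim genes were.

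Few of these genes followed the genotype, at shares near those of all genes. Only Rnf135 was listed in both wild-type and neither knockout library, which is 1.25% of the 80 genes against 1.56% of all genes. Rnf135 is a ligase known to act with the RNA sensor RIG-I. Its exonic peak (mm10, chr11:80198569-80198925) had a fold of 90.4 in wild type 1 and 109 in wild type 2, at percentiles 66.1 and 64.8. Rnf216 and Trim44 were listed in both knockout and neither wild-type library, 2.5% against 2.27% of all genes. Rnf216, a RING-between-RING ligase, had a coding-sequence peak (chr5:142992658-142992898) with folds of 12.8 and 8.22 in knockout 1 and 2, at percentiles 27.5 and 2.83. The Trim44 peak lay in the 3′ UTR (chr2:102303852-102304061), with folds of 2.9 and 2.53 at percentiles 35.4 and 19.7. The knockout pair were thus weak peaks of their lists, and the Rnf135 peak lay above the middle of its lists. The counts were repeated with the first and second wild-type and the first and second knockout library left out in turn. Then 1, 4, 6 and 5 genes were listed in wild type only and 5, 3, 4 and 8 in the knockout only. With a library left out the pattern is easier to meet, so higher counts follow from the rule. The same counts over all genes were not made.

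Counts of regions gave a similar result. All 4 libraries shared 52 of the 142 regions (36.6%), against 42.5% of all regions. Wild type alone held 2 (1.41%, against 2.02% of all regions), those of Rnf135 and of the 5′ part of Trim41. The knockout alone held 2 (1.41%, against 2.51% of all regions), those of Rnf216 and Trim44. Leaving out the same libraries in turn, again under the easier rule, gave 5, 10, 9 and 12 regions in wild type only. In the knockout only it gave 6, 5, 9 and 18. Another 34 regions were seen in 1 library, 32 in 2 and 24 in 3. Where a region held 1 peak per library, peak centres were close: over 45 such regions of these genes they spread by a median of 45 bp and at most 180 bp, beside a median of 46 bp over all 5189 such regions.

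Peaks of the Rnf and Trim genes lay mostly in 3′ UTRs and coding sequence. Of the 392 peaks, 170 (43.4%) were in the 3′ UTR, 145 (37.0%) in coding sequence, 48 (12.2%) in exons with no finer class and 29 (7.40%) in the 5′ UTR. The 3′ UTR share was 41.5% and 47.3% in wild type 1 and 2 and 45.1% and 39.8% in knockout 1 and 2, so the genotypes overlapped. Its means were 44.4% ± 4.06 for wild type against 42.4% ± 3.76 for the knockout (SD, n = 2 each; exact permutation test, two-sided, p = 0.667). For all peaks of protein-coding genes the 3′ UTR means were 42.8% and 43.2%. The coding-sequence share of the Rnf and Trim peaks was 37.7% and 34.1% in wild type and 37.3% and 38.7% in the knockout, which overlap as well. Their 5′ UTR share had means of 6.99% ± 2.12 and 7.78% ± 2.68 (SD, n = 2 each), beside 5.27% and 5.16% for all peaks of protein-coding genes; whether these genes differ there from the rest was not tested.

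**Figure D2:**
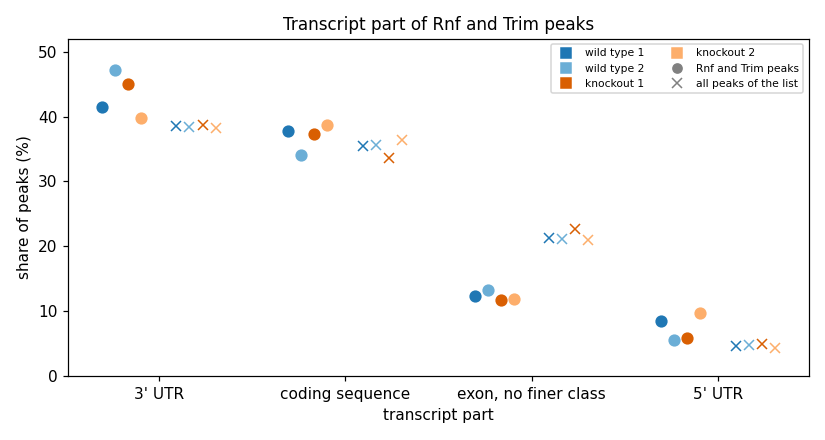
Share of peaks (percent) in each transcript part, by library, for the Rnf and Trim genes (circles) and for all peaks (crosses). All peaks include those of non-coding genes. Exons with no finer class held 20.9% to 22.7% of all peaks, and 11.9% to 12.4% of the peaks of protein-coding genes (not drawn). Circles of both genotypes overlap in 3′ UTR, coding sequence and 5′ UTR; the 3′ UTR share of the Rnf and Trim peaks runs from 39.8% to 47.3%.

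The class of transcript part that carried the best peak was mostly the same from library to library. The share over all genes was not counted. It was the same in all libraries for 39 of the 44 genes listed throughout: the coding sequence in 16, the 3′ UTR in 15, an unclassed exon in 5 (Rnf139, Rnf169, Rnf4, Trim26 and Trim7) and the 5′ UTR in 3 (Rnf214, Rnf43 and Trim24). The part differed between libraries in Rnf146, Rnf40, Trim16, Trim41 and Trim71. The same class need not mean the same place: the best peaks of Trim26 lay in different regions, none of them present in all libraries. Of the 44 genes, 41 had a region shared by all libraries.

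A part of these genes had a strong peak in every library. Of the 44 genes listed throughout, 14 (31.8%) had their best peak among the strongest 20% of every list, beside 1435 of 5683 of all genes listed throughout (25.3%). All genes include non-coding ones, unlike the Rnf and Trim genes, and the share over protein-coding genes alone was not counted. By mean percentile the first 10 were Rnf113a2 (98.1), Trim25 (97.2), Rnf169 (95.4), Trim2 (94.9), Rnf213 (91.3), Rnf139 (89.0), Trim13 (88.6), Trim11 (87.9), Rnf25 (86.8) and Rnf165 (86.1). Rnf26, Rnf113a1, Trim33 and Trim56 were the other 4 of the 14. The lowest means among genes listed throughout were those of Rnf208 (34.1), Rnf43 (34.3), Rnf144b (37.9), Rnf44 (38.9) and Trim26 (43.9).

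Rnf113a2 and its paralogue Rnf113a1, whose product is a splicing factor with a RING domain, each had 1 coding-sequence peak per library, of 866 to 1236 bp. The Rnf113a2 peak had folds of 211 and 113 in wild type 1 and 2 and of 281 and 334 in knockout 1 and 2. For Rnf113a1 the folds were 459 and 181 in wild type and 311 and 362 in the knockout. The folds of the genotypes overlap for Rnf113a1 and not for Rnf113a2, and no difference was tested. The Rnf113a2 percentiles were 99.4 and 99.1 in wild type and 94.7 and 99.1 in the knockout; all but the 94.7 of knockout 1 are ties at the top of their lists, so they give no order between libraries. Reads of such close copies can be split or shared in mapping, so the values of this pair are uncertain.

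Rnf213, a giant ATPase and ligase tied to moyamoya disease, had 13 peaks in 4 regions. Its longest coding peak (chr11:119440263-119442033) had folds of 763 and 1140 in wild type 1 and 2 and 249 in knockout 2, at percentiles 91.1, 93.1 and 90.4, and was not listed in knockout 1. The coding peak just downstream was listed everywhere, with folds of 359 and 86.9 in wild type and 160 and 122 in the knockout. The 3′ UTR peak was present throughout too, at 205 and 524 in wild type and 226 and 472 in the knockout. A weaker coding peak over 5′ exons was listed in wild type 2 and knockout 2 (55.5 and 25.8). Knockout 1 thus lacked 2 of the 4 regions, while both of its listed peaks of this gene were strong.

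Median strength gave opposite directions by the choice of genes or peaks. Over all listed Rnf and Trim genes, the median best percentile was 66.1 and 67.4 in wild type 1 and 2 and 62.1 and 61.2 in knockout 1 and 2. That of all genes was 59.1 to 59.9. For protein-coding genes, as all of these are, it was 62.4 and 61.8 in wild type and 62.9 and 61.9 in the knockout. Against these, the wild-type medians of the Rnf and Trim genes lay above and the knockout medians slightly below. The wild-type values lay above both knockout values, by 5.12 points of the means (66.8 ± 0.933 and 61.7 ± 0.604, SD, n = 2 each; exact permutation test, two-sided, p = 0.333, the smallest it can give). Over the 44 genes listed in every library the medians were 73.0 and 69.3 in wild type and 77.3 and 72.8 in the knockout, and the difference turned to 3.94 points higher in the knockout. Over these 44 genes the libraries of the genotypes overlapped. Keeping only the stronger 50% of each list, with genes listed in only some libraries still counted, also gave a higher knockout, by 8.97 points. With strength ranked by fold the difference was -8.95 points. The direction thus depended on which genes and peaks were counted, and its cause was not tested. Among the best peaks, 17, 17, 21 and 21 genes (wild type 1 and 2, knockout 1 and 2) lay in the strongest 20% of their list. These were 25.4%, 29.8%, 30.9% and 36.2%, beside 26.3% to 27.0% of all genes and 28.3% to 29.4% of protein-coding genes.

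Each role list holds few genes, was chosen with earlier results of these data known, and was not tested against all genes. Of all genes with a peak, 57.1% were listed in every library. By role, the ligases of histones and DNA damage were a mixed group. Of 9 genes, Rnf4, Rnf40 and Rnf169 were listed throughout, Rnf20 and Rnf168 in part, and Rnf2 (the catalytic subunit of Polycomb complex 1), Rnf8, Rnf111 and Rnf138 had no peak. Rnf169, which binds ubiquitin marks at DNA breaks, had an exonic peak of about 2 kb with folds of 281 and 1130 in wild type 1 and 2 and of 906 and 779 in knockout 1 and 2; its percentiles, 94.6 to 95.7, hardly moved while the folds differed. Rnf168, the ligase that spreads ubiquitin on H2A at breaks, had its only peak in knockout 2 (chr16:32298470-32299518), with a fold of 228 and a percentile of 97.1. Rnf20 and Rnf40 form the complex that ubiquitinates H2B. A coding peak of Rnf20 across 4 exon blocks (chr4:49649388-49651153) was listed in knockout 1 alone, with a fold of 18.1 at percentile 93.8. Rnf20 had a different, weak peak in each wild-type library (folds 7.95 and 2.77), and none in knockout 2. The Rnf40 coding peak, again over 4 blocks (chr7:127596033-127597129), was listed in wild type 1 and knockout 2 (folds 20.4 and 10.1, percentiles 78.6 and 81.4) and in neither of the other libraries. Each list held 3 exonic peaks of Rnf4, a SUMO-targeted ligase. The upstream one had folds of 11.1 and 16.9 in wild type and 21.6 and 4.71 in the knockout, and the others were a near-identical pair, so its count of 12 peaks overstates its sites.

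RING-between-RING ligases, which take ubiquitin onto themselves before passing it on, were listed mostly in part of the libraries. Of 8 genes 6 had a peak and 1, Rnf144b, was listed throughout, beside 57.1% of all genes with a peak. Its 3′ UTR peak had folds of 21 and 25.9 in wild type and 20.8 and 15.7 in the knockout. Rnf31, the catalytic subunit of the linear ubiquitin complex, was listed in wild type 1 (8.68) and knockout 1 (16). Rnf14 (15.2 and 10.8) and Rnf217 (7.95 and 14.4) were listed in the same pair of libraries. Rnf144a was listed in wild type 2 (8.88) and knockout 1 (8.01). All these peaks lay below the 45th percentile of their lists, and Rnf19a and Rnf19b had none.

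In WNT and TGF-beta signalling, the 5 of 7 genes with a peak were all listed in every library. Of all genes with a peak 57.1% were, and 5 genes are too few to compare shares. Rnf43, which removes WNT receptors from the cell surface, had a 5′ UTR peak (chr11:87664309-87664788) that started at the same base in all 4 lists, with folds of 11.6 and 16.3 in wild type 1 and 2 and 18.4 and 36.6 in knockout 1 and 2. Its percentiles, 20.8 and 29.7 in wild type and 41.3 and 45.6 in the knockout, did not overlap between genotypes, but lists of different length do not allow a change to be read from ranks. Rnf146, which marks axin for destruction, had a 3′ UTR peak with folds of 33.7 and 62.4 in wild type and 86.5 and 88.1 in the knockout. Rnf165, a ligase of the BMP pathway, had its best 3′ UTR peak at 456 and 125 in wild type and 120 and 144 in the knockout. Trim33, a ligase that binds Smad proteins and chromatin, had a 3′ UTR peak (chr3:103354787-103355567) at 458 and 193 in wild type and 320 and 325 in the knockout. Rnf220 had a 3′ UTR peak at 10.3 and 12.7 in wild type and 9.53 and 2.15 in the knockout. Rnf11 and Rnf111 had none.

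Of 14 ligases of membranes and the secretory pathway, 7 had a peak and 4 were listed throughout. Rnf139, an endoplasmic reticulum ligase tied to sterol control, had an exonic peak of 1764 to 1854 bp with folds of 338 and 326 in wild type and 356 and 220 in the knockout. Trim13, also of the endoplasmic reticulum, had a coding peak (chr14:61604717-61605916) at 449 and 365 in wild type and 372 and 256 in the knockout. The main 3′ UTR peak of Rnf185 stood at 186 and 178 in wild type and 161 and 200 in the knockout, and that of Rnf103 at 243 and 248 in wild type and 238 and 117 in the knockout. Rnf170 was listed in 3 libraries (10.8, 15.5 and 14.4 in wild type 1 and 2 and knockout 1), Rnf5 in knockout 1 (5.61) and Rnf130 in wild type 1 (5.78). The 4 genes listed throughout had best peaks above the 74th percentile of every list, and the 3 listed in part lay below the 33rd.

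Among the TRIM proteins of chromatin, Trim28, the corepressor that silences retrotransposons in embryonic stem cells, had no peak. Trim24 and Trim33 were listed throughout, and Trim66 in knockout 1 alone, at a fold of 6.41 and percentile 0.189. The Trim24 peak lay in the 5′ UTR (chr6:37870841-37871379), with folds of 25.3 and 21.8 in wild type 1 and 2 and 24.4 and 14.6 in knockout 1 and 2.

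All 4 TRIM genes with NHL repeats, an RNA- and protein-binding end, were listed in every library. The share among all genes with a peak was 57.1%, and 4 genes are too few for a comparison. Trim2, a neuronal ligase, had a coding peak (chr3:84190587-84191397) at 186 and 374 in wild type and 316 and 551 in the knockout, with percentiles of 94.3 to 95.4. Its 3′ UTR peak had folds of 27.2 and 22.2 in wild type and 207 and 47.1 in the knockout, which did not overlap. The knockout percentiles (90.4 and 87.5) lay above those of wild type (83.6 and 77.1), with the same reservation on ranks. Folds separated the other way, higher in wild type, for the best peaks of Rnf6, Rnf157, Rnf220, Rnf26 and Trim61, among others. How often folds separate in either direction over all genes was not counted, and no such separation was tested. Trim3 had a coding peak over 3 exon blocks at 231 and 73.2 in wild type and 243 and 82.9 in the knockout. Trim32, the ligase of limb-girdle muscular dystrophy, had its main coding peak in 3 libraries (68.7 and 32.8 in wild type, 25.8 in knockout 2), and a weaker one in all 4.

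Trim71 (Lin-41), an RNA-binding repressor of stem cells and a known target of the let-7 microRNA, had 12 peaks in 4 regions. Its upstream 3′ UTR peak, the nearer to the coding sequence, had folds of 9 and 5.37 in wild type 1 and 2 and 6.6 and 8.73 in knockout 1 and 2. The next stood at 7.68 and 13 in wild type and 41.9 and 6.66 in the knockout. The last (chr9:114507223-114507641) was missing from wild type 1 and had folds of 1.88, 4.8 and 2.37 in wild type 2, knockout 1 and knockout 2. A 5′ UTR peak of 2035 bp (chr9:114562335-114564369) was listed in knockout 2 alone, with a fold of 174 and percentile 96.4. Thus the 2 upstream 3′ UTR peaks were shared by all libraries, and the strongest peak of the gene was seen once.

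In the list of 13 innate immunity TRIM genes, 7 had a peak and 3 were listed throughout. Trim25, the ligase known to activate RIG-I, had the most regions of the 80 genes: 15 peaks in 6 regions. Its main coding peak (chr11:89015781-89017117) had folds of 649 and 485 in wild type 1 and 2 and 1120 and 217 in knockout 1 and 2, with percentiles of 96.4 to 97.7. A coding peak further 5′ was weaker and also listed everywhere (12.4 and 7.4 in wild type, 8.01 and 13.9 in the knockout), and a peak over 4 exon blocks was listed in wild type 2 and knockout 2 (14.8 and 8.78). Trim56, which also acts in antiviral defence, had a 3′ UTR peak at 200 and 299 in wild type and 134 and 241 in the knockout; its coding peak was listed in wild type 1 and 2 (248 and 387) and knockout 2 (311). Trim26, of the major histocompatibility region, had best peaks of 65.8 and 14.1 in wild type and 8.81 and 72.8 in the knockout, at different places in the gene. Trim8 had a coding peak (chr19:46515128-46515906) at 608 and 520 in wild type and 376 in knockout 2, and none in knockout 1. Trim21, the cytosolic antibody receptor, was listed in wild type 1 (12.3), knockout 1 (17.6) and knockout 2 (8.22). Trim27 was listed in wild type 1 (8.68) and knockout 1 (8.01), and Trim12c in knockout 1 (13.6). Trim14, Trim65, Trim38, Trim30a, Trim12a and Trim34a had no peak. Of the 7 COS-box TRIM genes, which bind microtubules, only Trim36 was listed, in every library (42.7 and 105 in wild type, 56.9 and 16.4 in the knockout).

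Genes outside these roles included several listed in every library, with folds that varied between libraries. Rnf25, a ligase of stalled ribosomes, had a 3′ UTR peak with folds of 383 and 428 in wild type and 614 and 432 in the knockout. Trim11 had its main 3′ UTR peak at 209 and 280 in wild type and 257 and 113 in the knockout, beside a neighbour listed everywhere. Rnf215 (88.2 and 381 in wild type, 242 and 50 in the knockout), Rnf123 (81.7 and 152, then 131 and 44.1) and Rnf157 (117 and 150, then 99.3 and 71) carried 3′ UTR peaks, and Rnf6 (60 and 61.4, then 43.3 and 13.1) and Trim61 (41.2 and 45.1, then 40.1 and 31.4) coding peaks. Rnf24 had its best 3′ UTR peak at 126 and 131 in wild type and 62.7 in knockout 2; knockout 1 lacked this peak and listed a weak one beside it, at 8.01. Trim52, Trim7, Rnf225, Rnf214, Rnf39, Rnf187 and Trim16 were also listed throughout, with mean percentiles of 51.1 to 66.4.

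The genes listed in part of the libraries mostly had weak peaks. Rnf125, Rnf180, Rnf182, Rnf34, Trim23, Trim35 and Trim39 were listed in 3 libraries, with mean percentiles from 4.63 for Rnf182 to 47.5 for Trim35. Rnf10, Trim62 and Trim68 were listed in 1 library of each genotype, with mean percentiles of 41.5, 27.2 and 25.6. The adjusted p-value was 0.05 or higher, thus above the usual limit, in only 4 of the 392 peaks, all in knockout 1. Over all genes, knockout 1 held 238 such peaks among its 12699, and the other lists 22 to 25 each.

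Peaks at the start of a transcript allow the sequence under them to be shown. RefSeq windows of GRCm38.p6, running from 250 bases before to 50 after a gene's start, were available for 62 of the 80 genes. GGAC, a core form of the m6A motif, was searched in them as those 4 letters on the transcript strand; 65.6% of 32851 such windows of all genes hold it there, and 87.7% on either strand, so a match is a description and not a site. The sequences below are stretches of these windows at listed peaks of 4 genes described here, 5′ to 3′ on the transcript strand, at most 30 bases, with the motif in capitals. The Rnf26 site (chr9:44113116-44113145, minus strand) lay inside its peak in all 4 libraries. Its motif is at position -81 from the RefSeq start, so it lies upstream of that annotated transcript. The region of this peak also holds peaks of Gm26737 on the opposite strand. The Trim45 site (chr3:100922497-100922526, plus strand) starts 2 bases before the peak of wild type 1 and has its motif inside it, while the peak of knockout 2 starts past it. The Trim24 stretch (chr6:37870841-37870860, plus strand) lay under the peaks of wild type 1 and knockout 1, and that of Trim71 (chr9:114564340-114564369, minus strand) under the knockout 2 peak; neither holds the motif.
Rnf26: gccttccaagccgGGACgccgttcccttct
Trim45: tgggagagcccgaGGACccactacctcatc
Trim24: ctaggcacgggcgggcgcgc
Trim71: gtttgctcctttggagattaaaaggattcc

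Rnf26, an endoplasmic reticulum ligase that positions vesicles, had 1 peak per list that ran over most of the gene (chr9:44111369-44113368), with folds of 354 and 559 in wild type and 317 and 78.9 in the knockout. It measured 2000 and 1970 bp in wild type 1 and 2 and 1821 and 1732 bp in knockout 1 and 2, so both wild-type peaks were longer than both knockout peaks; most of that difference lay at the 5′ edge. Trim45 had 2 peaks of high fold in wild type 1 and knockout 2 and no peak in the other libraries. Its 5′ UTR peak had a fold of 249 in wild type 1 and 261 in knockout 2, and its coding peak over 3 blocks (chr3:100923369-100927240) 193 and 299. Trim41 differed again: a peak of 1429 bp in its 5′ part (chr11:48815895-48817323 in wild type 2) had a fold of 351 at percentile 99.1, where wild type 1 listed 180 bp at a fold of 13 and the knockout libraries listed nothing.

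**Figure D3:**
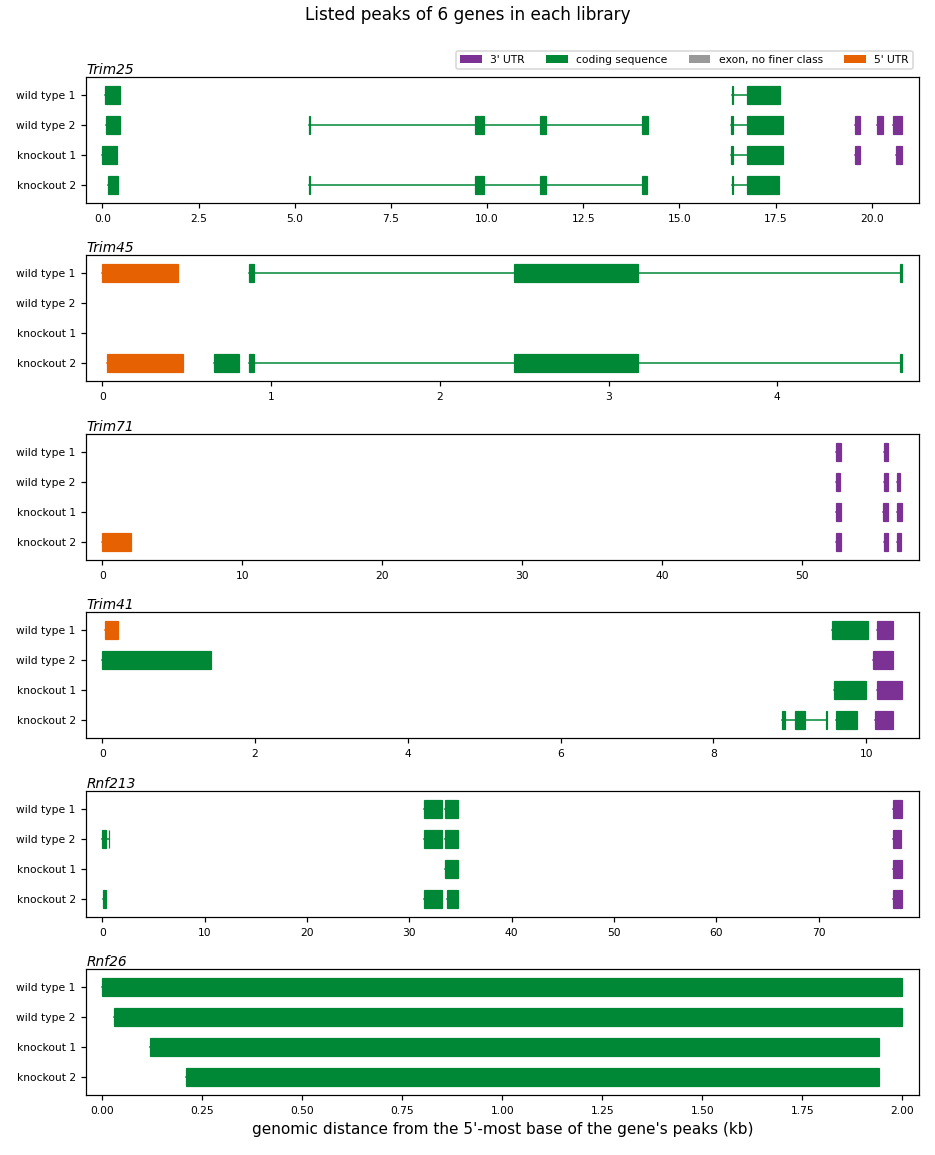
Positions of all listed peaks of Trim25, Trim45, Trim71, Trim41, Rnf213 and Rnf26 in each library, in kb from the most 5′ base of any of the gene's peaks. Rnf26 keeps 1 long peak in every library and Trim25 its main coding peak, while Trim45 is empty in wild type 2 and knockout 1 and the 5′ peak of Trim71 appears in knockout 2 alone.

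Strong peaks were not always shared. Of the regions of these genes, 34 held a peak among the strongest 20% of a list; 23 were present in all libraries and 11 (32.4%) were absent from at least 1, against 27.7% of all such regions. The 11 lay in Rnf126, Rnf168, Rnf20, Rnf213, Rnf40, Trim41, Trim45, Trim56, Trim8 and, with 2 regions, Trim71. They were seen in 1 library (3 regions), 2 libraries (3) or 3 libraries (5). Knockout 1 lacked 9 of the 34 (26.5%), wild type 2 lacked 5, wild type 1 lacked 4 and knockout 2 lacked 2; over all strong regions, knockout 1 lacked 17.2% and the others 9.66% to 14.1%. Knockout 1 was thus the library that most often lacked a strong peak, and its partner knockout 2 the one that lacked fewest, so these absences did not follow the genotype. The Rnf126 3′ UTR peak is an example, with folds of 98.3, 57.7 and 38.8 in wild type 1, wild type 2 and knockout 2. Of the 11, the Trim41 region alone was in both libraries of 1 genotype and neither of the other.

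**Figure D4:**
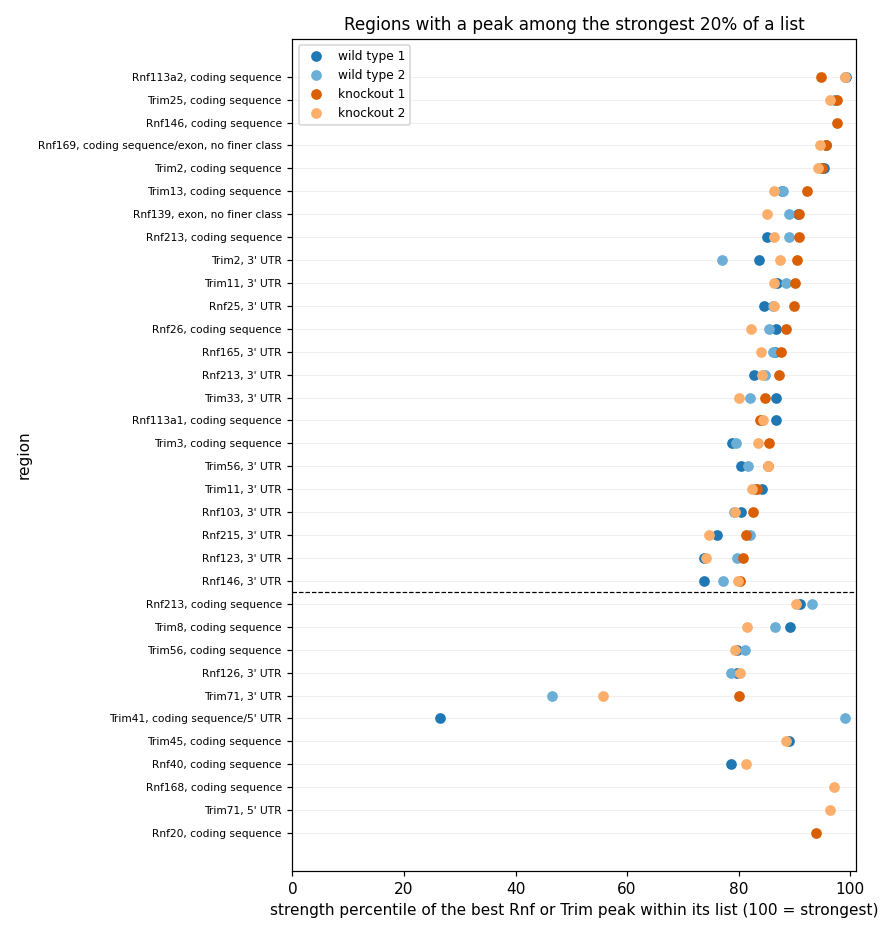
Percentile of the peak in each library for the 34 regions with a peak among the strongest 20% of a list, each row a region named by gene and transcript part. Above the dashed line are regions counted in all libraries; below it are the 11 absent from at least 1. The Rnf146 coding row has a point in knockout 1 only, because the other libraries list the overlapping Echdc1 peak on the opposite strand.

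Some peaks could belong to another gene. In 7 of the 142 regions the lists held peaks on both strands, and no source used here says whether the libraries kept the strand, so the gene is uncertain there. The coding peak of Rnf146 in knockout 1 (chr10:29346628-29347854, fold 671, percentile 97.7) overlaps 3′ UTR peaks assigned to Echdc1 on the opposite strand in all 4 libraries, and its region is counted as shared only through them. Peaks of Rnf123, Rnf214, Rnf40, Rnf5, Rnf26 and Trim17 overlap peaks of other genes in this way.

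Several genes carried more than 1 region. At least 2 were found in 37 of the 80 genes (46.25%), beside 39.2% of all genes, and 4 or more in 6 (7.5%, beside 5.18%): Trim25 with 6, and Trim71, Trim41, Trim35, Rnf213 and Trim56 with 4 each. The shares over all genes include non-coding ones, and those of protein-coding genes alone were not counted. Trim35 was listed in 3 libraries, and 2 of its coding regions in knockout 1 only.

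Other enzymes of the pathway were listed to a similar extent. Of 127 gene symbols of the E1, E2, HECT and other RING groups, 76 had a peak and 43 of these (56.6%) were listed in all libraries. None of the 2 E1 genes had a peak. Of 39 E2 symbols 15 had one and 6 were listed throughout. For 23 HECT ligases the counts were 14 and 9, and for 63 other RING symbols 47 and 28. The E2 symbols with a peak include the pseudogenes Ube2d-ps and Ube2n-ps1, each listed in part of the libraries. The other RING symbols include Cop1 and Rfwd2, names of the same gene, and Rnf7, which the Rnf rule also takes. Cop1, Rfwd2 and Rnf7 had no peak. Following the genotype were Ube2g1, an E2, and Nedd4, a HECT ligase, in wild type only, and Huwe1, a HECT ligase, in the knockout only. These are 2 and 1 of the 76 symbols with a peak, beside 1.56% and 2.27% of all genes, and were not tested. Nedd4 had folds of 2.45 and 3.44 in wild type 1 and 2, and Huwe1 of 3.16 and 2.94 in knockout 1 and 2. Among the strongest was Mdm2, the ligase of p53, with a mean percentile of 98.4 and highest folds of 1020 and 361 in wild type and 1960 and 245 in the knockout.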

How the data were processed

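One peak list per library was used, 2 wild-type and 2 Mettl5-/-, with groups from the labelled genotype. Per the file headers, the authors deposited a p-value with its log10 and a fold enrichment (a ratio) for each peak, besides its exon blocks, gene and transcript part. HISAT2, HOMER and mm10 appear in the submitters' processing notes with no role; the sources used here give neither the peak caller nor the input. Peaks were listed per library. Depth is unknown, so no interval was computed and the number of libraries limits the precision.

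Starts were converted to count from 1. Dropped were 3, 5, 6 and 3 peaks not on a reference chromosome, none of these genes. A region is a set of peaks from the 4 lists linked by shared exonic bases (1 bp or more, any strand). Percentiles rank the p-value, or its log10 where listed as 0, within a list, ties sharing their mean rank. Backgrounds use all genes or all regions with a peak. Means of 2 libraries were compared by the exact permutation test, two-sided. The joining was tested on simulated lists. Python 3.11.15, numpy 2.4.6, pandas 2.3.3, scipy 1.17.1 and matplotlib 3.10.9 were used.

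The genes and lists were chosen with earlier results of these data known. Named genes were those following the genotype, the 10 highest and 5 lowest mean percentiles among genes in all libraries, those with the most regions, and the role lists; other genes were named after their values were seen. The values of 1 gene are counted but not reported here. Alternatives were an adjusted p-value under 0.05, lists shortened to an equal length or to their stronger 50%, a reciprocal overlap of 50%, joining within 100 bp, whole spans, the same strand alone, strength by fold, share of base pairs, and leaving out each library.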

Additional observations from a re-analysis of the deposited data

How the results depend on the processing

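Of 89 alternative values, 64 stayed within 1.5 times the count, or within 1 SD of the value, and 25 moved. Keeping the stronger 50% of each list left 27 genes and 34 regions in all libraries, 1 region in wild type only, 1 in the knockout only and no gene (0) in the knockout only. The median strength difference, knockout minus wild type, was 8.97 points there, 3.94 over the 44 genes in all libraries alone (added after the data were seen) and -8.95 with strength by fold. Lists of equal length gave 4 regions in wild type only, and a reciprocal overlap of 50% gave 1. Counted by base pairs, the coding-sequence difference was -2.56 percentage points, against 2.08 by peaks. Leaving out 1 library gave 5 to 12 regions and 1 to 6 genes in wild type only, and 5 to 18 regions and 3 to 8 genes in the knockout only; with 1 library on a side these patterns are easier to meet. The causes of the other shifts were not tested. No paired analysis was possible because the wild-type labels give no replicate number and no model was fitted. Depth is unknown, and with 2 libraries per genotype no exact test could reach the usual threshold.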
